A study of Prunus persica with 16 samples.

Results

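The comparison described here is the change in the hydrogen cyanamide (HC) effect on the bud transcriptome between 3 and 7 days after treatment. It uses all 16 libraries of the series, and 81 of the 16596 genes tested (0.488%) had an HC effect that differed between the days. The HC effect of a day is the mean log2(FPKM + 1) of HC libraries minus that of control libraries, where FPKM is the read density per transcript length and library size. The tested contrast is the effect at 7 days minus the effect at 3 days, and a gene was called at a Benjamini-Hochberg adjusted p under 0.05 in limma. Called genes were sorted with a limit of 1 on the log2 scale, a 2-fold change, at each day. A reversal is an effect at or past the limit at both days with opposite signs. A fading effect is past the limit at 3 days and smaller or under the limit at 7 days, a growing effect has the same sign at both days and is larger at 7 days, and a late effect is past the limit at 7 days only. The sorting uses the same values as the test, so class sizes are descriptions.

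The trees were the low-chill peach cultivar TropicBeauty on Floridaguard rootstock, 5 years old, with 11 of the 150 chilling hours they require. The HC groups came from 4 trees sprayed with 1% (v/v) HC and 0.15% (v/v) non-ionic surfactant, and the control groups from another 4 trees that got no HC. Buds were taken 3 and 7 days later, giving 4 groups of 4 libraries. Surfactant is named with HC and not for the controls, and their effects cannot be told apart. With 4 trees and 4 libraries a day for each treatment, both days may have drawn on the same trees. The labels do not say which library came from which tree. The labels do not say which buds (floral or vegetative) were taken, and tissue markers could not be checked, because the files give no gene names and 0 of 26873 identifiers matched the reference gene table.

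Dormant buds of peach normally need a period of cold before they can grow out, and HC is sprayed in warm-winter orchards to replace part of that cold and bring bud break forward. HC is a strong metabolic stressor in plants: it inhibits catalase and is followed by oxidative stress and changed respiration in grape buds, where it has been studied most. A treated bud can therefore differ from an untreated one early, while it responds to the chemical, and again later, as its development moves ahead. In whole buds, fewer cells of a type and less RNA per cell cannot be told apart.

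Depth was uneven. The shallowest library, control replicate 1 of 7 days, had 0.556 M estimated reads, and the deepest, HC replicate 3 of 3 days, had 21.9 M. Group medians were 7.25 and 11.0 M (control and HC, 3 days) and 2.83 and 3.48 M (control and HC, 7 days). Control replicate 2 at 3 days (1.43 M) and control replicate 1 at 7 days also had the fewest genes above 0, at 8667 and 10356, against up to 18378 elsewhere. Without these 2 libraries 109 genes were called, 45 of them reversals that were lower first, and 59 of the 81 genes and 30 of the 38 reversals described here stayed called.

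By the limit of 1 at each day, 40 of the 81 called genes (49.4%) reversed. With no limit, the signs of the effects were opposite in 68 (84.0%, against 46.5% of tested genes). Of the 81 genes, 59 had a higher and 22 a lower effect at 7 than at 3 days. Of the 40 reversals, 38 were lower in HC buds at 3 days and higher at 7 days. Fading effects numbered 32, of which 17 were lower and 15 higher in HC buds at 3 days. Late effects numbered 6, with 4 genes higher and 2 lower in HC buds at 7 days. No called gene had a growing effect, and 3 genes were under the limit at both days. Among all tested genes the lower-then-higher reversals were 2.40%, against 46.9% of the called genes, but the contrast itself favours effects of opposite sign, so nothing is read from that gap. Of the tested genes 398 were lower-then-higher and 197 (1.19%) higher-then-lower reversals. Fading effects were 5.89% (lower first) and 14.9% (higher first) of tested genes, against 21.0% and 18.5% of called genes. Late effects were 12.9% (higher) and 3.37% (lower) of tested genes, against 4.94% and 2.47% of called genes. Nothing is read from these gaps either. Growing effects were 414 of the tested genes. The lowest adjusted p among them was 0.424, and 4 of them had an unadjusted p under 0.05. In none of the 31 alternatives run was a called gene classed as growing by the effects used there.

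**Figure D1:**
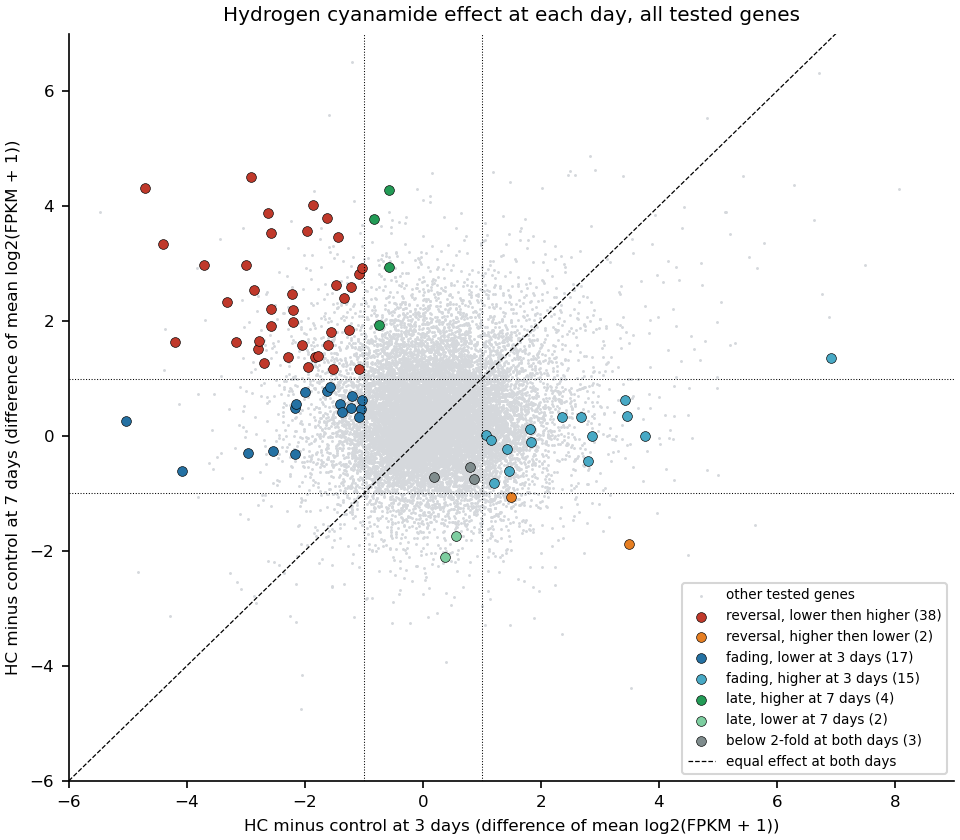
Each point is 1 of the 16596 tested genes, with the HC effect at 3 days on the x axis and at 7 days on the y axis (difference of mean log2(FPKM + 1), HC minus control, 4 libraries a group). Colours mark the 81 called genes by class, dotted lines the limit of 1 and the dashed line equal effects. The 38 lower-then-higher reversals fill the upper left corner, and 1 called gene, a fading one at 6.91 and 1.36, is past the limit in the same direction at both days.

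The split into higher and lower differences depended on the scaling. Median-of-ratios scaling gave 45 higher and 32 lower, and upper-quartile scaling 39 higher and 32 lower, as the median difference over all tested genes moved from 0.10 to -0.02 and -0.04. The lower-then-higher reversals numbered 33 and 28 under these scalings. Single libraries also moved the counts. Leaving out HC replicate 1, 3 or 4 of 3 days gave 49, 45 and 43 calls, and leaving out the same numbers of 7 days gave 47, 42 and 34. Leaving out control replicate 3 or 4 gave 46 and 37 calls for 3 days, then 53 and 46 for 7 days. The reversals that were lower first numbered 20, 24 and 21, then 23, 19 and 16, then 22 and 20, then 28 and 24 in the same fits. Leaving out control replicate 2 raised the calls, to 107 for 3 days and 103 for 7 days. Leaving out HC replicate 2 of 3 days gave 83. The reversals that were lower first then numbered 45, 50 and 34. All 81 genes kept the sign of their difference in every fit that tested them (up to 28 alternative fits a gene). The call itself held in all 16 fits that left out 1 library for 30 genes, and in every alternative for 12 genes, of which 9 were lower-then-higher reversals.

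**Figure D2:**
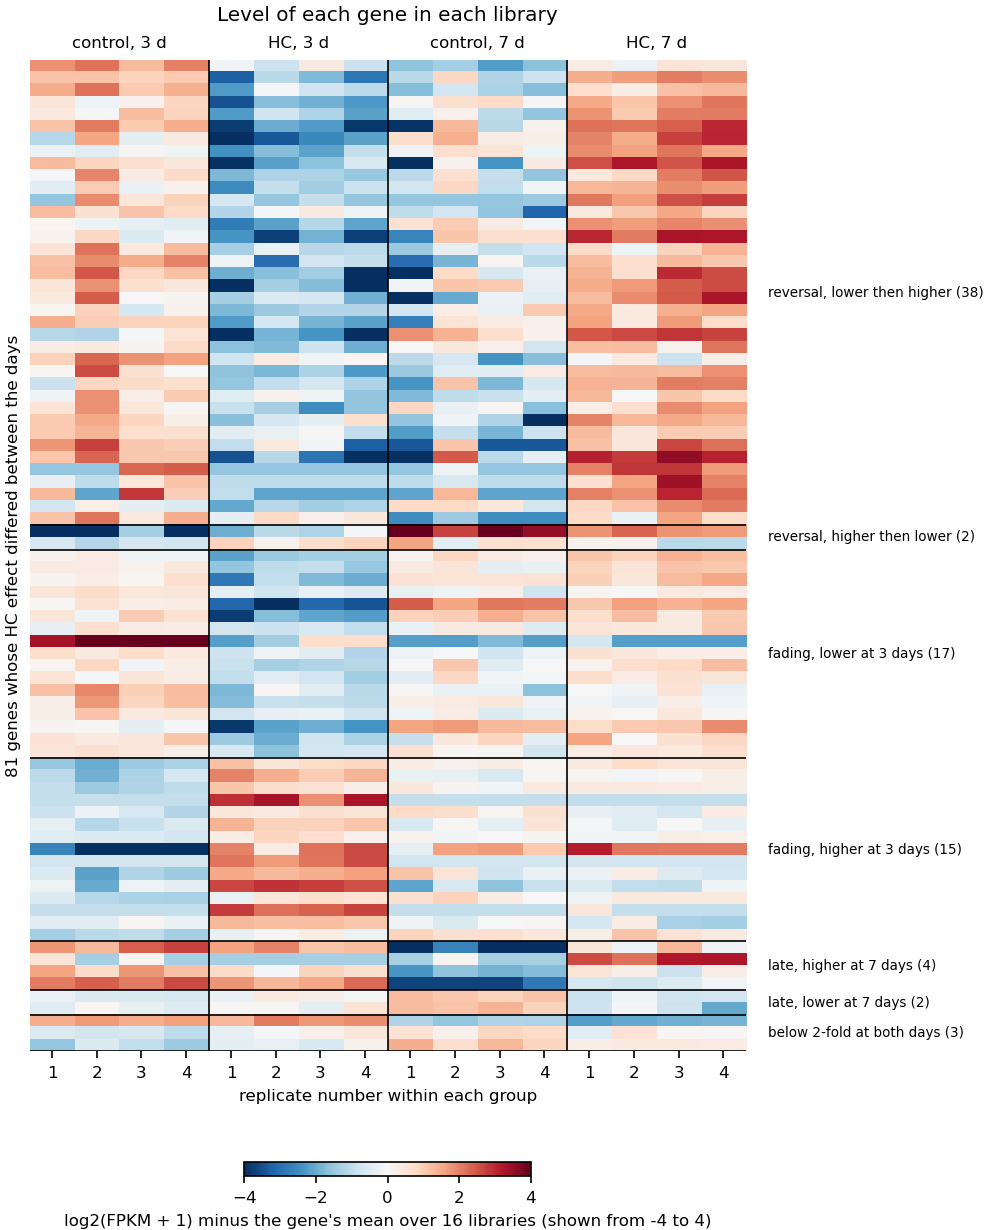
Rows are the 81 genes whose HC effect differed between the days, grouped by class, and columns are the 16 libraries by group and replicate number. Colour is log2(FPKM + 1) minus the gene's mean over all libraries. In the 38 lower-then-higher reversals HC libraries are low at 3 days and high at 7 days, and in 12 of these rows the mean of the 7-day controls is as low as or lower than that of the 3-day HC libraries.

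The 38 genes that were lower in HC buds first and higher later formed the main class. Their median HC effect was -2.20 at 3 days and 2.27 at 7 days, and the median difference was 4.41 (range 2.24 to 9.03). In 30 of them the highest HC value of 3 days was under the lowest control value, in 30 the lowest HC value of 7 days was over the highest control value, and in 22 both held. Over all tested genes these separations were met by 3.56%, 4.81% and 0.271%, but the class was chosen on the same values. Of the 38 genes, 3 passed the filter on low values through the HC libraries of 7 days alone. These are Prupe.1G290800, Prupe.1G477200 and Prupe.6G294800, named after their values were seen. Such genes had to be high in that group, and all of them count among the 30 that were apart at 7 days. Of the 81 genes, 55 were also called for the effect at 3 days (1.81% of tested genes were) and 18 for the effect at 7 days (0.446%). In this class the effect was called lower at 3 days in 21 of the 38 (0.735% of tested genes), called higher at 7 days in 11 (0.325%), at both days in 4 and at neither day in 10. For those 10 the difference between the days passed the test while neither day did.

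Read along time, 29 of these 38 genes rose in HC buds by the test. The change from 3 to 7 days in HC buds was positive in all 38, and 3.62% of tested genes were called higher with time in HC buds. It was not called in the others, among them Prupe.5G110100 (0.06 ± 0.44, adjusted p = 0.97), which is named after its values were seen. In control buds it was negative in 32 and called lower in 12 (3.95% of tested genes). In either direction 7.36% of tested genes were called with time in control and 6.23% in HC buds. The median change was 2.96 in HC and -1.62 in control buds. The HC level at 7 days was above the control level at 3 days in 31 of the 38, and over all 38 the median gap was 1.06. This comparison across days and treatments was not tested. The genes had a median of 53.2 FPKM over all libraries (range 2.53 to 1440), lower than the 268 and 281 FPKM of the fading genes.

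**Figure D3:**
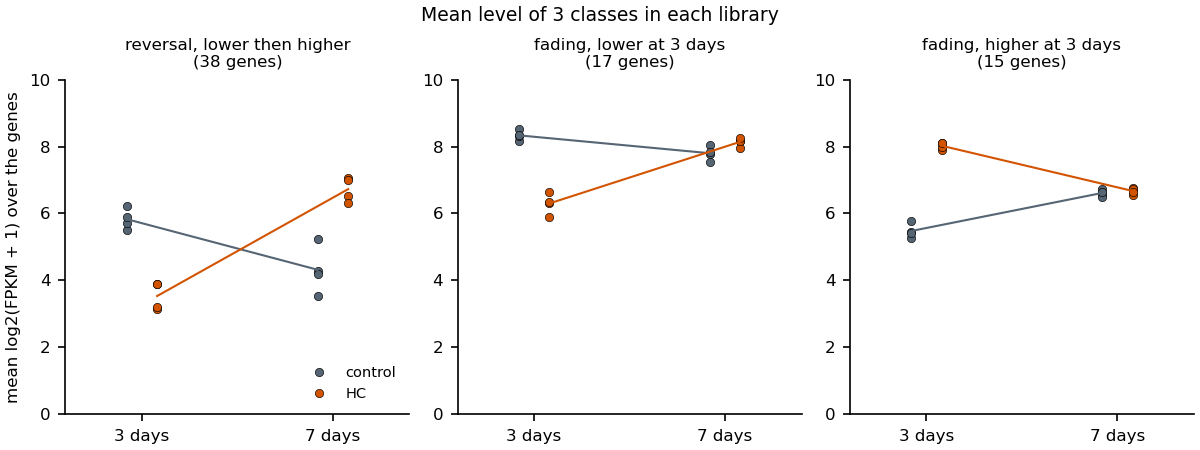
Each point is 1 library, placed by its mean log2(FPKM + 1) over the genes of a class, for control and HC buds at 3 and 7 days. Lines join the group means, and the genes of each class were chosen on the same values. The lines cross for the 38 lower-then-higher reversals and, with a smaller gap at 7 days, for the 17 genes that were lower first, and they come close at 7 days for the 15 genes that were higher first.

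Averaged over the 38 genes on the log2 scale, control libraries of 3 days had levels from 5.51 to 6.22, and the matching HC libraries from 3.15 to 3.89. At 7 days it was 3.54, 5.25, 4.28 and 4.20 in control replicates 1 to 4 and 6.32 to 7.05 in HC libraries. The groups did not overlap on either day, but the genes were chosen on these same values, so this is a description only. Control replicate 2 of 7 days stood above the other control libraries of its day, and control replicate 1, the shallowest library, stood lowest with 12 of the 38 genes listed at 0. The part of depth in that low value was not tested.

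Prupe.2G232200 had the lowest adjusted p of this class. Its control libraries at 3 days held 807, 809, 678 and 751 FPKM and its HC libraries 36.8, 172, 107 and 47.6 FPKM. At 7 days the control libraries held 172, 644, 157 and 204 FPKM and the HC libraries 995, 1170, 1497 and 1329 FPKM. The order of the treatments turned over completely, with no overlap on either day. The HC effect was -3.31 ± 0.43 (SE, adjusted p = 0.00045) at 3 days and 2.33 ± 0.43 (adjusted p = 0.023) at 7 days. The difference was 5.65 ± 0.61 (adjusted p = 0.00022), and none of the 28 alternatives lost it.

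Prupe.1G276700 differed from it in the change with time in HC buds, which was called for Prupe.2G232200 (4.01 ± 0.43, adjusted p = 1.0e-05) and not for Prupe.1G276700. In control buds both were called lower with time. Control libraries had 269, 343, 183 and 307 FPKM at 3 days and 23.8, 28.8, 15.2 and 23.8 FPKM at 7 days. HC libraries had 66.8, 41.1, 97.4 and 41.1 FPKM and then 95.0, 64.6, 112 and 103 FPKM. The fall in control buds was called (-3.53 ± 0.33, adjusted p = 1.3e-06), and the change in HC buds was not (0.66 ± 0.33, adjusted p = 0.31). The HC effect went from -2.20 to 1.99, a difference of 4.19 ± 0.47 (adjusted p = 0.00022) that held in each of the 28 alternatives.

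With the limit of 1 at both days, 2 genes took the opposite course, higher in HC buds at 3 days and lower at 7 days. With a limit of 0.5 there were 7, and by sign alone 13. In neither were the libraries apart on both days (0.0542% of tested genes were, in that order). Prupe.8G000400 had 0, 0, 20.7 and 0.24 FPKM in control and 13.2, 25.1, 22.3 and 50.8 FPKM in HC libraries at 3 days. At 7 days it had 1215, 356, 1174 and 632 FPKM in control and 189, 272, 192 and 177 FPKM in HC libraries. It rose with time under both treatments, by 8.37 ± 0.75 in control (adjusted p = 1.0e-06) and 2.99 ± 0.75 in HC buds (adjusted p = 0.021). The HC effect was 3.50 ± 0.75 at 3 days (adjusted p = 0.018) and -1.87 ± 0.75 at 7 days, where it was not called (adjusted p = 0.36). The difference was -5.38 ± 1.07 (adjusted p = 0.028). The early groups overlapped at 1 library, control replicate 3, and 13 of 28 alternatives kept the call, with adjusted p-values from 0.00013 to 0.13.

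Prupe.4G029100 had 73.9, 50.9, 72.7 and 68.1 FPKM in control and 221, 132, 190 and 216 FPKM in HC libraries at 3 days. At 7 days the values were 351, 86.8, 184 and 178 FPKM in control and 132, 130, 54.2 and 55.2 FPKM in HC libraries. The groups were apart at 3 days and overlapped at 7 days, where control replicate 2 lay within the HC range. Neither day passed the test alone, with an HC effect of 1.49 ± 0.38 (adjusted p = 0.056) and then -1.06 ± 0.38 (adjusted p = 0.28). The difference was -2.55 ± 0.54 (adjusted p = 0.041) and 11 of 28 alternatives kept its call, with adjusted p-values from 0.010 to 0.13. Without a library the class held between 0 and 5 genes.

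**Figure D4:**
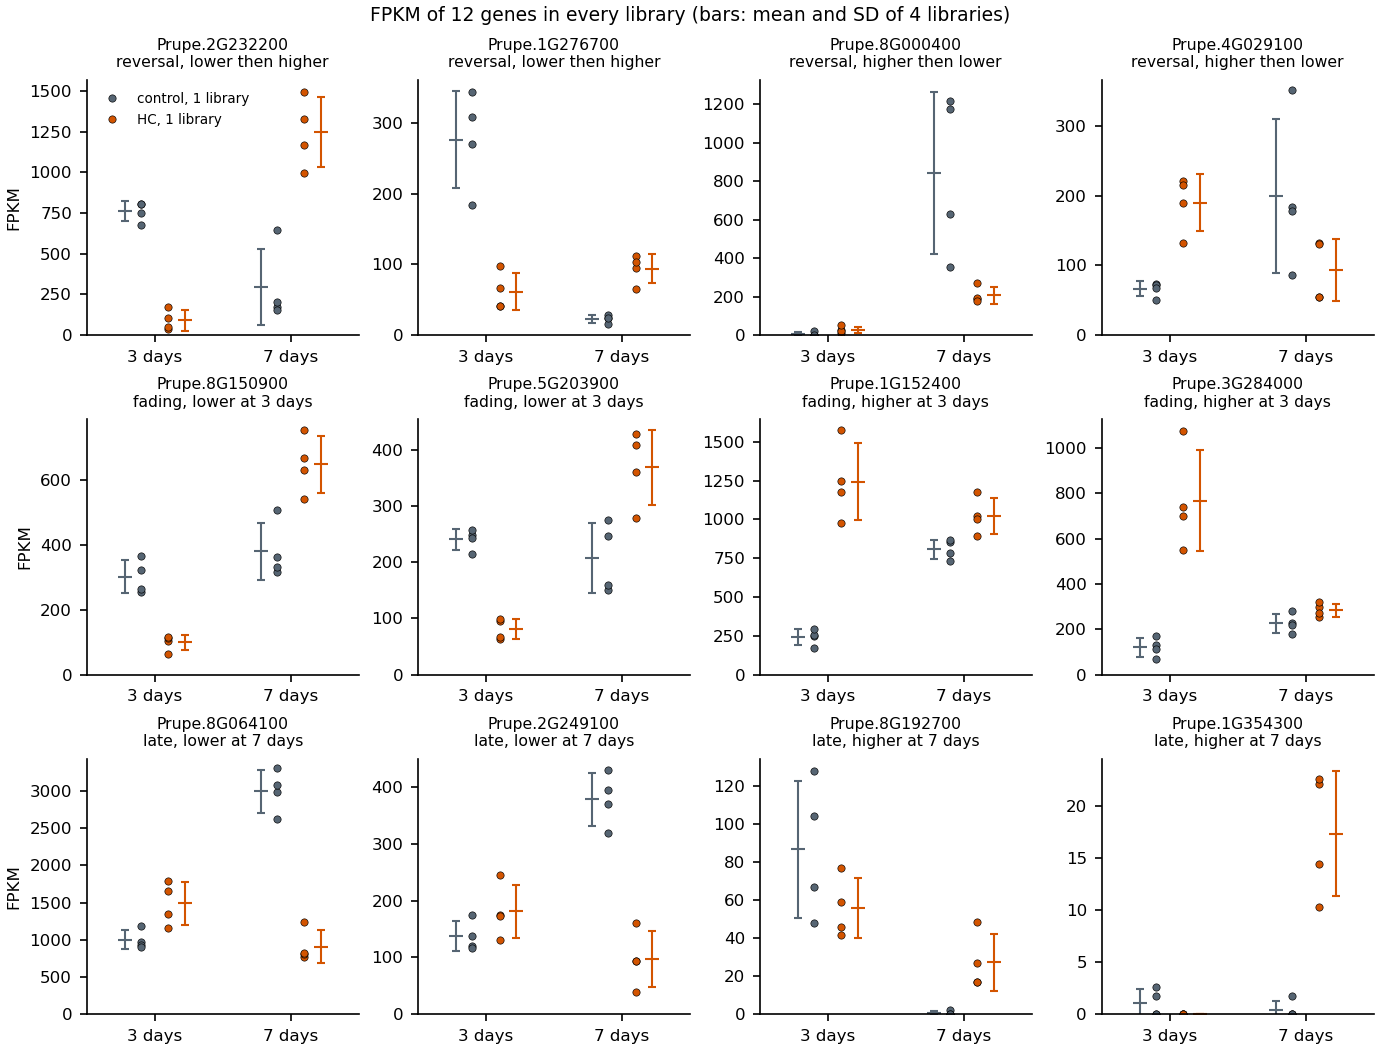
FPKM of the 12 genes with the lowest adjusted p in each class and direction, in control and HC buds at 3 and 7 days. Points are single libraries, bars the mean and SD of 4 libraries, with the part of a bar under 0 not drawn, and each panel has its own scale. In the reversals the means of the treatments change order, and so do those of the fading genes that were lower first. In the fading genes that were higher first the treatments are far apart at 3 days and closer at 7 days. In the late genes they separate at 7 days.

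The 17 fading genes that were lower in HC buds at 3 days had a median effect of -1.62 at 3 days and 0.48 at 7 days. The effect was called lower at 3 days in all 17 (0.735% of tested genes), and called at 7 days in none (0.446%). At 7 days 13 had a positive and 4 a negative value. In 4 genes every HC library was then above every control library (4.81% of tested genes). The change with time in HC buds was called higher in 14 of the 17 (3.62% of tested genes). In control buds it was called higher in 2 (3.41%) and lower in 4 (3.95%). The change in HC buds was negative in 1 gene, Prupe.1G251600, named after its values were seen. Its control mean was 117 FPKM at 3 days and 0.0875 FPKM at 7 days, and it passed the filter through the control libraries of 3 days alone. The size of this class lay between 5 and 20 when 1 library was left out. Leaving out HC replicate 1, 3 or 4 gave 10, 10 and 7 genes for 3 days, then 8, 9 and 5 for 7 days. Leaving out control replicate 1, 3 or 4 of 3 days gave 11, 7 and 6, and leaving out control replicate 3 or 4 of 7 days gave 8 each. It was 6 under both scalings.

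Prupe.8G150900 had 323, 364, 254 and 264 FPKM in control and 64.3, 104, 113 and 115 FPKM in HC libraries at 3 days. By 7 days it had 317, 508, 361 and 332 FPKM in control and 630, 540, 752 and 666 FPKM in HC libraries. HC libraries were lowest at 3 days and highest at 7 days, so the gene lies just under the limit for a reversal. The HC effect was -1.62 ± 0.22 (adjusted p = 0.00057) at 3 days and 0.78 ± 0.22 (adjusted p = 0.14) at 7 days. The difference was 2.40 ± 0.31 (adjusted p = 0.00081), a call that all 28 alternatives kept.

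Prupe.5G203900 behaved alike, with 248, 242, 215 and 258 FPKM in control and 63.7, 94.7, 99.1 and 67.2 FPKM in HC libraries at 3 days. The 7-day values were 246, 275, 150 and 159 FPKM in control and 361, 278, 428 and 409 FPKM in HC libraries. Here too the HC libraries lay below all controls first and above all of them later. The difference was 2.44 ± 0.34 (adjusted p = 0.0018), called in all 28 alternatives. With a limit of 0.5 in place of 1, both genes would count as reversals, and the lower-then-higher class would hold 49 genes. With a limit of 2 it would hold 12.

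The 15 genes that were higher in HC buds at 3 days had a median effect of 2.36 at 3 days and 0.00 at 7 days. Of these, 3 passed the filter on low values through the HC libraries of 3 days alone, and are named here after their values were seen. Prupe.6G206600 (4.38 to 9.19 FPKM in those libraries) and Prupe.6G227100 (5.78 to 17.7 FPKM) were listed at 0 in the other 12 libraries, and Prupe.8G251300 (7.96 to 12.4 FPKM) in 11 of them. Such genes had to differ, and the authors' deposited adjusted p at 3 days was 1 for each. The median effects of the other 12 genes were 1.82 and -0.02. Over all classes 8 called genes passed the filter through 1 group alone. All 15 were called higher at 3 days (1.08% of tested genes), with all HC values above all control values (4.97%), and none was called at 7 days. In 8 of them the level in control buds was called higher with time (3.41%), and in 8 the level in HC buds was called lower with time (2.62%). The count was between 6 and 28 when 1 library was left out. Leaving out HC replicate 1, 3 or 4 gave 9, 6 and 8 genes for 3 days, then 8 each for 7 days. Leaving out control replicate 2 or 4 of 3 days gave 28 and 7, and leaving out control replicate 4 of 7 days gave 8.

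Prupe.1G152400 was called higher with time in control buds. It had 246, 175, 253 and 294 FPKM in control and 1576, 978, 1176 and 1247 FPKM in HC libraries at 3 days. At 7 days control libraries had 852, 783, 866 and 733 FPKM and HC libraries 891, 1176, 1025 and 1002 FPKM. The HC level changed by -0.27 ± 0.18 (adjusted p = 0.48), and the control level rose by 1.76 ± 0.18 (adjusted p = 2.65e-06). The HC effect was 2.36 ± 0.18 (adjusted p = 8.9e-07) at 3 days and 0.34 ± 0.18 (adjusted p = 0.53) at 7 days, although the HC libraries still lay just above all controls. The difference was -2.02 ± 0.25 (adjusted p = 0.00048). It was called in 27 of 28 alternatives and lost under plain empirical Bayes moderation (adjusted p = 0.063, range 0.00030 to 0.063).

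Prupe.3G284000 moved on both sides. Control libraries had 130, 70.9, 113 and 170 FPKM at 3 days and 228, 221, 179 and 282 FPKM at 7 days. HC libraries had 1078, 742, 551 and 699 FPKM and then 297, 254, 270.0 and 320 FPKM. Control buds rose by 0.96 ± 0.25 (adjusted p = 0.026) and HC buds changed by -1.39 ± 0.25 (adjusted p = 0.0019). The difference was -2.34 ± 0.36 (adjusted p = 0.0053). Of 28 alternatives 26 called it, and it was lost under voom on estimated reads (adjusted p = 0.29) and plain empirical Bayes moderation (adjusted p = 0.063), with a range of 0.0023 to 0.29.

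Among the 6 late genes, 2 were lower in HC buds. Both were called lower at 7 days (0.121% of tested genes) with no overlap of the groups (1.45%). Prupe.8G064100 had 1189, 967, 934 and 908 FPKM in control and 1157, 1796, 1654 and 1347 FPKM in HC libraries at 3 days. By 7 days it had 3305, 2982, 2620 and 3078 FPKM in control and 774, 1234, 805 and 819 FPKM in HC libraries. The groups overlapped at 3 days and were apart at 7 days. Control buds rose by 1.59 ± 0.17 (adjusted p = 4.95e-06) and HC buds changed by -0.72 ± 0.17 (adjusted p = 0.012). The difference of -2.31 ± 0.24 had the lowest adjusted p of all genes tested (0.00017), and all 28 alternatives called it.

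Prupe.2G249100 was also called higher with time in control buds (1.46 ± 0.32, adjusted p = 0.0078). Its change in HC buds was not called (-1.02 ± 0.32, adjusted p = 0.069). It had 120, 175, 137 and 117 FPKM in control and 175, 174, 131 and 244 FPKM in HC libraries at 3 days. At 7 days it had 395, 370, 430 and 319 FPKM in control and 94.1, 161, 94.2 and 39.6 FPKM in HC libraries. The groups overlapped at 3 days and every HC library was below every control library at 7 days. The HC effect was 0.38 ± 0.32 (adjusted p = 0.71) and then -2.10 ± 0.32 (adjusted p = 0.0092). The difference was -2.48 ± 0.45 (adjusted p = 0.018) and was called in 26 of 28 alternatives with adjusted p-values from 6.9e-05 to 0.090. It was lost under plain empirical Bayes moderation and when libraries were blocked by treatment and replicate number (adjusted p = 0.070).

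The genes that were higher in HC buds only at 7 days were of 2 kinds. Prupe.8G192700 fell with time in control buds (-5.95 ± 0.53, adjusted p = 6.8e-07), and its change in HC buds was -1.10 ± 0.53 (adjusted p = 0.29). It had 66.8, 48.2, 104 and 128 FPKM in control and 59.0, 76.9, 41.8 and 45.7 FPKM in HC libraries at 3 days. At 7 days control replicate 2 held 2.14 FPKM and the other 3 controls were listed at 0, against 26.8, 16.7, 48.6 and 17.0 FPKM in HC libraries. The difference was 4.84 ± 0.75 (adjusted p = 0.0053), called in 27 of 28 alternatives and lost when libraries were blocked by treatment and replicate number (adjusted p = 0.051). Its size is uncertain because of the values of 0, and it ranged from 3.00 to 7.41 over the alternatives.

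Prupe.1G354300 was near or at 0 in all groups but one. It had 2.62, 0, 1.71 and 0 FPKM in control libraries at 3 days, was listed at 0 in all 4 HC libraries at 3 days, and had 0, 1.74, 0 and 0 FPKM in control libraries at 7 days. The HC libraries of 7 days had 14.4, 10.3, 22.0 and 22.6 FPKM, which stand for about 230, 35.1, 54.1 and 74.9 estimated reads. The difference was 4.59 ± 0.83 (adjusted p = 0.016), with a range of 2.27 to 8.63 over the alternatives. Of the 27 alternatives that tested the gene 25 called it. It was lost with a pseudocount of 0.1 (adjusted p = 0.070) and when libraries were blocked by treatment and replicate number (adjusted p = 0.089), and it passed the filter through the HC libraries of 7 days alone. The other 2 of the 4 late genes were also lower in control buds at 7 than at 3 days, like Prupe.8G192700. The change with time in control buds was called lower in 3 of the 4 (3.95% of tested genes). When libraries were blocked by treatment and replicate number, all 4 late genes that were higher lost the call. They numbered from 1 to 14 when 1 library was left out. Leaving out control replicate 4 or 2 of 3 days gave 1 and 9, leaving out control replicate 2 of 7 days gave 14, and leaving out HC replicate 4 of 7 days gave 2. The lower class was 5 when replicate 2 of 7 days was left out of either treatment.

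The 3 called genes under the limit at both days had high levels, from 305 to 17255 FPKM on average. Prupe.3G244700 had 24132 to 41316 FPKM in all 8 libraries of 3 days. By 7 days controls held 3385 to 4285 FPKM and HC libraries 2139 to 2737 FPKM, with no overlap. Its difference was -0.89 ± 0.19 (adjusted p = 0.039). Prupe.3G230300 held 888 to 1180 FPKM (control, 3 days), 1403 to 2411 FPKM (HC, 3 days), 2043 to 3260 FPKM (control, 7 days) and 1337 to 2676 FPKM (HC, 7 days), for a difference of -1.33 ± 0.29 (adjusted p = 0.041). Of the 28 alternatives, 10 called the first, with adjusted p-values from 0.0047 to 0.78, and 8 the second, from 0.0019 to 0.34.

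At the threshold, Prupe.6G095800 was the last gene called (difference 1.79 ± 0.40, adjusted p = 0.048) and Prupe.6G113500 the first not called (2.06 ± 0.46, adjusted p = 0.051). In the latter, controls held 204 to 263 FPKM at 3 days and HC libraries 139 to 222 FPKM. By 7 days controls held 54.2 to 237 FPKM and HC libraries 387 to 499.6 FPKM. Its values are those of a late effect, with effects of -0.26 and 1.80, so the classes do not end sharply at the threshold.

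Called genes were more abundant than tested genes in general, with a median of 132 FPKM against 10.8 FPKM. Identifiers that begin with Prupe.6G made up 21 of the 81 called genes (25.9%) and 11 of the 38 lower-then-higher reversals (28.9%), against 13.8% of tested genes. Called genes also lay near each other in the numbering of identifiers: 15 of the 81 (18.5%) had another called gene within 10 identifiers, against 5.76% of all tested genes. Of the 9 such pairs, 5 were of 1 class. Both pairs of directly adjacent identifiers within a class are named here after their values were seen. Prupe.5G164000 and Prupe.5G164100 were lower-then-higher reversals, with differences of 6.51 ± 1.39 (adjusted p = 0.041) and 4.78 ± 0.56 (adjusted p = 0.00030). Prupe.6G278000 and Prupe.6G278100 faded from higher values at 3 days, with differences of -3.24 ± 0.63 and -2.81 ± 0.55 (both adjusted p = 0.025). Prupe.6G278100 had 606 to 768 FPKM in HC libraries at 3 days and 22.9 to 90.7 FPKM in all others. Whether these neighbours share reads as near-identical copies was not tested, so their values are uncertain.

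The authors' deposited tables compare HC with control separately for each day, on the same libraries, and hold no test of the difference. The authors' deposited tables both list 79 of the 81 genes. For all 38 lower-then-higher reversals the authors' deposited log2 fold changes were negative at 3 days and positive at 7 days, and the deposited adjusted p was under 0.05 for 32 of them at 3 days, 27 at 7 days and 21 at both. Of all genes in the authors' deposited tables, 9.2%, 8.7% and 1.47% met these conditions, whatever the sign. Over the 18512 genes in both tables, the authors' deposited values met that last pattern, in that order of signs, in 86 genes (0.465%). In the authors' deposited tables all 17 fading genes that were lower first had an adjusted p under 0.05 at 3 days and 4 had one at 7 days. Of the 15 that were higher first, 13 are in both of the authors' deposited tables, 12 had such a p at 3 days and 1 at 7 days. Neither of the 2 higher-then-lower reversals had one at both days in the authors' deposited tables. For Prupe.2G232200 the authors' deposited log2 fold changes were -2.94 and 1.97, and for Prupe.8G064100 they were 0.63 and -1.82.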

How the data were processed

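Bud RNA of 16 libraries was sequenced after the Illumina TruSeq mRNA protocol, per the labels. Per the submitters' processing notes the tools were RSEM 1.2.31, Trimmomatic and STAR 2.5.2a, with no roles given. No genome build is given in the sources used here. In the matrix the authors deposited, values are FPKM as far as they show: each library sums to between 1052238 and 1209106, and nearly all values are not whole. The deposited table of each day gives a log2 fold change, an adjusted p-value and a signal value per treatment, made by a method not given in the sources used here.

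Genes that reached an FPKM of 1 in 4 of the 16 libraries entered the test, made with limma 3.58.1 (R 4.3.3, statmod 1.5.0) on log2(FPKM + 1). The model had a mean for each of the 4 groups, and variances were moderated by eBayes (trend and robust). Fold changes on this scale understate changes of low genes. Errors are standard errors from this fit, and p-values were adjusted over all 16596 genes per contrast. The 24 replicate pairs had correlations between 0.69 and 0.95 across genes, and none were copies. Libraries were treated as independent, and p-values measure the spread between them. Any pairing of libraries by tree across the days was left out of this fit. FPKM carries no depth, so reads were estimated: the deposited signal divided by FPKM gave a factor per gene. The step worth 1 read was the one that best put low values on whole numbers. At that step 83.3% to 98.8% lay within 0.2 of a whole number, against 40% for a step fixed beforehand. The step was picked on these values, so 40% is not the chance level here. The genes named are those with the lowest adjusted p in each class and direction, 2 each, plus the genes on either side of the threshold. The files give no gene names, so gene lists were not used. The comparison, classes and rules were chosen with earlier results of these data known.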

Additional observations from a re-analysis of the deposited data

Results flagged for a closer look

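The HC effect differed between the days, by the test of the difference itself, for each of the 14 genes named by rule. The rule picked only among called genes, so that outcome was fixed in advance. The differences (7 minus 3 days, log2) were 5.65 for Prupe.2G232200, 4.19 for Prupe.1G276700, 4.84 for Prupe.8G192700 and 4.59 for Prupe.1G354300. They were 2.40 for Prupe.8G150900 and 2.44 for Prupe.5G203900. Among genes whose effect was lower at 7 days, the values were -5.38 for Prupe.8G000400, -2.55 for Prupe.4G029100, -2.02 for Prupe.1G152400 and -2.34 for Prupe.3G284000. They were -2.31 for Prupe.8G064100, -2.48 for Prupe.2G249100, -0.89 for Prupe.3G244700 and -1.33 for Prupe.3G230300.

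A lone library stood apart from the other 3 of its group in 6 of 63 sets of 4 values examined (9.52%). Chance flags about 5% of sets of continuous, normally spread values. A set with 3 values of 0 and 1 above 0 is always flagged, as for Prupe.8G192700 and Prupe.1G354300 below. Nothing is therefore read from the gap between these rates. Control replicate 3 at 3 days had 20.7 FPKM of Prupe.8G000400, and the other 3 had 0.24 FPKM or less. Control replicate 2 at 7 days had 2.14 FPKM of Prupe.8G192700 and 1.74 FPKM of Prupe.1G354300, both listed at 0 in the other 3, and the lowest control value of Prupe.3G244700 that day, at 3385 FPKM. HC replicate 2 at 7 days had 1234 FPKM of Prupe.8G064100, above 774 to 819 FPKM in the other 3. HC replicate 1 at 7 days had 16.6 M estimated reads, against 2.60 to 3.57 M in the other 3.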

How the results depend on the processing

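Genes called for the difference numbered 41 with a pseudocount of 0.1 and 125 with one of 5, 227 with library quality weights, 225 under voom on estimated reads and 33 with plain empirical Bayes moderation. The lower-then-higher reversals numbered 19 (pseudocount 0.1), 88 (quality weights), 88 (voom) and 20 (plain moderation), and 12 with a class limit of 2. Leaving out 1 library gave 34 to 107 genes called and 16 to 50 such reversals. Same-numbered libraries shared little of their deviation (correlations -0.05 to 0.13, over 0.1 in 1 of 16 pairs). The same number fitted best in 6 of the 16 pairs. These were all pairs of control with HC at 3 days, and across the days control replicate 4 and HC replicate 1. No pair of control with HC at 7 days was among them. This check does not settle whether the numbers pair libraries. With replicate number as a block 53 genes were called, 24 of them lower-then-higher reversals, and 52 of the 81 genes stayed called. With treatment and number together as a block the counts were 38, 19 and 34. Of 391 refits of the 14 named genes, 78 lost the call and none changed sign, and 5 genes were called in every alternative. Leaving out the 2 shallowest libraries was chosen after seeing the data. The cause of these changes was not tested. Low depth in control libraries limits what an FPKM of 0 can show.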
